A study of Caenorhabditis elegans with 2 samples.

Results

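The genes described here encode 9 transcription factors of the stress and longevity network of Caenorhabditis elegans, taken by name from the 19973 nuclear protein-coding genes of the WBcel235 annotation. They are xbp-1, hif-1, daf-16, pqm-1, hlh-30, pha-4, skn-1, atfs-1 and hsf-1, and all 9 symbols were found. The data are peak lists from chromatin immunoprecipitation with an antibody against GFP, in 2 biological replicates of 1 group, so conditions could not be compared. The animals were whole hermaphrodite L4 larvae of strain ZM8745, 54 hours after synchronization as starved L1 larvae. Both replicates carried the deletion mu86 of daf-16, the daf-2 allele e1370 and the insertion hpSi15, in which the ges-1 promoter, active in the intestine, drives GFP fused to DAF-16a. The labels place the tag at the start of the protein in one field and at its end in another. No untagged animals were analysed here. The lists are limited to a transgene driven by an intestinal promoter, in animals with a deletion in their own daf-16. Where the transgene was expressed, and whether any DAF-16 of the animals' own remained, cannot be read from the lists.

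DAF-16 is the FOXO factor that insulin-like signalling keeps out of the nucleus, and daf-2 encodes the receptor of that pathway. It shares the control of stress resistance with factors that each answer a different strain on the cell. XBP-1 answers misfolded protein in the endoplasmic reticulum, HIF-1 low oxygen, HSF-1 heat, ATFS-1 mitochondrial damage and SKN-1 oxidants and toxins, while HLH-30 (the TFEB homologue) drives autophagy, the FoxA factor PHA-4 is needed for long life under dietary restriction, and PQM-1 enters intestinal nuclei when DAF-16 leaves them.

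Each entry is an interval with a summit, its highest point, and the authors' signal, whose scale is not stated. Signals were therefore used only to rank entries within a list, with rank 1 the highest. The optimal list holds 1489 entries that passed the authors' test of reproducibility, with signals of 84.33 or more. The pooled list holds 30000 entries called on both replicates together, background included, and the lists of replicates 1 and 2 hold 28175 and 22676. The lists hold no read counts, so the depth is unknown. Entries were given to a gene when the summit lay from 5000 bp upstream of the gene start to the gene end. Positions are on ce11 (WBcel235), and offsets count from the gene start along the gene, negative when upstream.

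Of the 9 genes, 4 held an optimal summit in this window, namely xbp-1, hif-1, daf-16 and pqm-1, with daf-16 holding 2. The share was 44.4% of the 9 genes and 10.6% of all nuclear protein-coding genes by the same rule (2108 genes). Windows of these genes are long, from 6550 to 31206 bp with a median of 12266, against 7027 for all genes, and among the 12649 genes with windows in that range 11.7% held an optimal summit. Among genes with windows from 0.8 to 1.25 times as long as that of each gene in turn, the share ran from 8.81% for xbp-1 to 20.9% for hlh-30, with 9.30% for pqm-1, 13.4% for hif-1 and 18.3% for daf-16. The other 5 genes, hlh-30, pha-4, skn-1, atfs-1 and hsf-1, had pooled entries only. By the deposited q-value, 15 of the 92 pooled entries at the 9 genes were at or under 0.05 (16.3%), beside 8.62% of all nuclear pooled entries. More of the 15 were at daf-16 than at any other gene, among them the overlapping intervals of ranks 484 and 1754. None of the 15 was at atfs-1 or hsf-1, and 1 each was at skn-1 and pha-4, so most of the weaker entries described below miss that threshold. With so few genes, chosen by name, the shares are a description and were not tested.

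The sequence around the summits is shown for the optimal entries of xbp-1, hif-1 and pqm-1, and for the highest entries of pha-4 and hlh-30, which lay just below the optimal list and hold an element looked for. Capitals mark TGATAAG, the DAF-16 associated element, which PQM-1 itself can bind, and TGTTTAC, a form of the DAF-16 binding element, on either strand. Each is read along the gene from the WBcel235 genome, 50 bp to each side of the summit. The xbp-1 sequence stops at the first transcript start.
xbp-1, chrIII:4193740-4193808 (+): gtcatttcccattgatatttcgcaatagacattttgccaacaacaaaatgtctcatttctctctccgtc
hif-1, chrV:20778354-20778454 (+): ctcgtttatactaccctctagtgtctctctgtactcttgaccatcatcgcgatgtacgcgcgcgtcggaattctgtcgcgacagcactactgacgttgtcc
pqm-1, chrII:11151049-11151149 (-): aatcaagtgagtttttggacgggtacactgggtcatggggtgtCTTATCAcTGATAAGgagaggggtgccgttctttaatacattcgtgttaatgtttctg
pha-4, chrV:20752775-20752875 (+): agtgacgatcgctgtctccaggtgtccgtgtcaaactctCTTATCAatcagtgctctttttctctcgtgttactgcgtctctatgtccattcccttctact
hlh-30, chrIV:4024305-4024405 (-): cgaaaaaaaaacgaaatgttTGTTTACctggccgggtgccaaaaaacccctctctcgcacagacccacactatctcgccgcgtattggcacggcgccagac

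The highest summit among the 9 genes was that of xbp-1, whose mRNA the stress sensor IRE-1 splices to make the active factor. It had rank 107 in the pooled and optimal lists with a signal of 240.7, and it lay 19 bp upstream of the start of R74.3.1 and 31 bp upstream of that of R74.3.2. In replicate 1 it had rank 78 and a signal of 153.9, 46 bp upstream. In replicate 2 it had rank 182 and a signal of 93.94, 58 bp upstream. Both replicates thus held it among their highest entries, and in all lists it sat at the promoter. The interval was narrow, 223 bp in the pooled list where nearly all entries (29795 of 30000) have the same width of 420 bp. No other pooled summit lay in the 4981 bp upstream, and 1 weaker entry, at rank 9966, lay in a coding exon 223 bp after the gene start. Farther upstream the replicates alone had weak entries, at -2634 bp with rank 25045 in replicate 1 and at -2607 bp with rank 17088 in replicate 2. Among all nuclear protein-coding genes 0.686% had an entry of pooled rank 107 or better in their window. The printed xbp-1 sequence holds neither element, and neither was found within 50 bp of the summit on the side left out.

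The gene of hypoxia factor HIF-1 had its optimal entry far upstream, at chrV:20778194-20778613, between hif-1 and the gene before it. Its signal was 180.4 in the pooled list, at rank 281. In replicate 1 the overlapping entry had rank 328 and a signal of 95.98. In replicate 2 it had rank 242 and a signal of 86.15. The ranks were close, and the 3 summits lay within a short stretch, at offsets of -2003, -1992 and -2007 bp. The hif-1 gene has 6 transcripts from 4 starts. The summit was 2003 bp from the start of F38A6.3b.1 and F38A6.3d.1, 2009 bp from that of F38A6.3a.1, 2915 bp from that of F38A6.3e.1 and F38A6.3f.1, and 4068 bp from that of F38A6.3c.1. Every annotated start was thus more than 2000 bp away, and hif-1 was the protein-coding gene with the nearest start.

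The hif-1 window held 11 pooled summits, 11.2 per 10 kb, against a median of 2.85 over all genes. After the leading entry came rank 1981 with a signal of 72.43 at an offset of -3298, nearer to the start of F38A6.4. An intronic entry of rank 2674, with a signal of 63.15, lay 173 bp inside the transcript F38A6.3c.1, which begins within the gene. This second group of entries ranked unlike in the replicates, the upstream one at 4809 and 1412 and the intronic one at 1616 and 10361 of replicates 1 and 2. TGATAAG lay within 50 bp of the summit of a further upstream entry at -1313, of rank 3746, and not at the optimal summit.

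**Figure D1:**
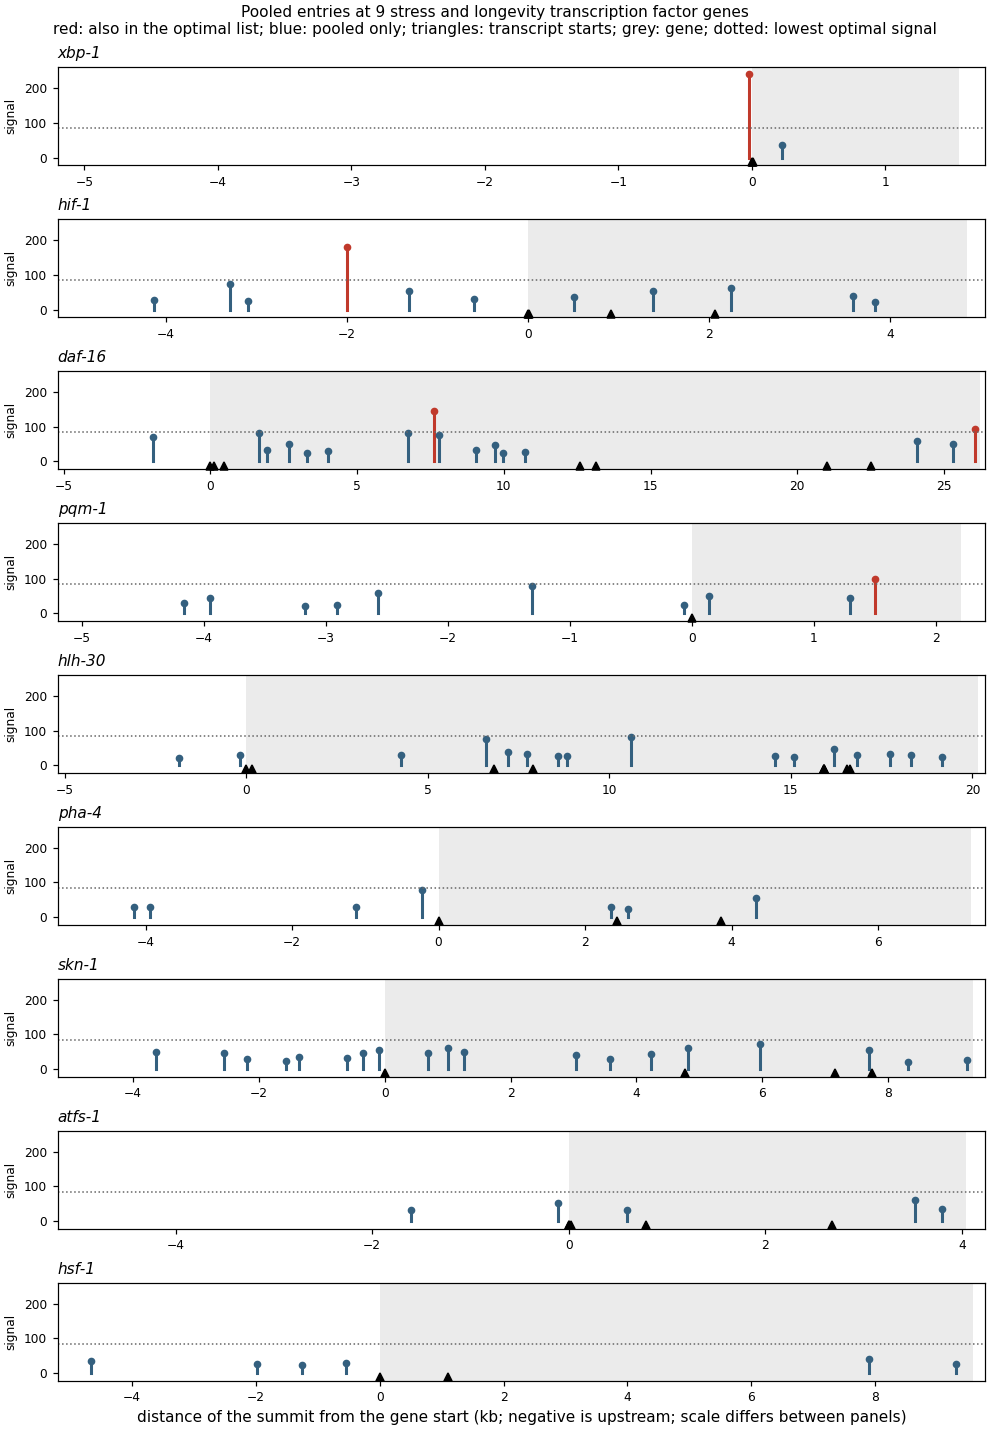
Pooled entries in the windows of the 9 genes, with the authors' signal per entry on the vertical axis and the distance of the summit from the gene start in kb on the horizontal axis, whose scale differs between panels. Red entries are also in the optimal list, blue ones are in the pooled list alone, triangles are transcript starts, grey is the gene and the dotted line is the lowest optimal signal of 84.33; the xbp-1 entry of 240.7 stands at the start, while that of hif-1 stands about 2 kb upstream.

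pqm-1, a zinc finger gene with 1 annotated transcript, had its optimal entry inside the gene, in an intron 1496 bp after the start, at chrII:11150889-11151308. The pooled signal was 97.55, at rank 1150. In replicate 1 it had rank 672 and a signal of 72.22. In replicate 2 it had rank 1511, with a signal of 41.08 and a summit offset of 1399 bp, just below the 1489 highest entries of that replicate. Replicate 1 thus ranked it higher than replicate 2. As the sequence above shows, the summit holds TGATAAG on both strands, 1 copy on each strand with a single base between them. TGATAAG was within 50 bp of 8.66% of all 1489 optimal summits, and TGATAA, which it contains, of 19.5%.

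The window of pqm-1 was the most crowded of the 9, with 10 pooled summits or 13.9 per 10 kb. A distal upstream entry at -1311 had rank 1662 and a signal of 79.31, and was at ranks 1346 and 3923 of replicates 1 and 2. Another at -2578 had rank 3065, and ranks 1655 and 7022 of the replicates. The entry at the start itself, 138 bp inside a coding exon, had rank 4868 and a signal of 49.08, with no overlapping entry in replicate 2. So replicate 1 ranked the 2 upstream entries above replicate 2, as it did the optimal one.

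daf-16 itself is a special case, because the animals carry a deletion in it and a transgene with part of it, and the extent of neither is given in the sources used here. Reads from the chromosome and from the transgene cannot be told apart in these lists. The gene runs from 10750498 to 10776703 on chromosome I and has 11 transcripts from 7 starts. Its first optimal entry had a signal of 145.9 at rank 484 and lay in an intron 7607 bp after the gene start. Replicate 1 had the overlapping entry at rank 611 with a signal of 74.60. Replicate 2 had it at rank 332 with a signal of 78.35. The summits of the replicates were 155 bp apart, at 7762 and 7607, and the pooled list had a further overlapping entry at 7807 with rank 1754. The first of these is thus a place that both replicates ranked high, within the intron of the long transcripts.

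Relative to the alternative starts of daf-16, this summit was 7607 bp after the start of R13H8.1h.1, 7473 bp after that of R13H8.1f.1 and 7145 bp after that of R13H8.1d.1. It was 4998 bp before the start of R13H8.1b.1 and 5549 bp before that of R13H8.1l.1. It was 13403 bp before the start of R13H8.1a.1, the isoform in the transgene's name, and 14894 bp before that of R13H8.1e.1. No start lay near it, and the nearest was that of R13H8.1b.1 and R13H8.1c.1. TGATAAG occurs 2 times within 50 bp of the summit.

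The second optimal entry of daf-16 lay at the other end, in the 3' UTR at 26041 bp, with a signal of 93.50 at rank 1246. Replicate 1 had it at rank 2820 with a signal of 38.23. Replicate 2 had it at rank 1397 with a signal of 42.47. This entry was 5031 bp after the start of R13H8.1a.1. Another 3' UTR entry, at 25315 bp, had rank 4375.

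Between these ends the pooled list had no summit for 13325 bp, from 10738 to 24063 bp, and this was the longest such stretch in the windows of the 9 genes. It holds 4 of the 7 starts, among them those of R13H8.1a.1 and R13H8.1b.1. The replicates had stretches of 12636 and 12978 bp in the same place. Stretches at least as long as that of the pooled list were 4.66% of the 29969 between neighbouring nuclear summits, whose median was 1600 bp, so long empty stretches also occur elsewhere. Whether the deleted segment and this stretch coincide was not tested.

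hlh-30, the gene of the autophagy regulator, had no optimal summit, but 2 pooled entries close to the threshold. The first, with a signal of 80.25 at rank 1630, lay in an intron 2708 bp after the nearest of its starts. It was at rank 2889 in replicate 1 and rank 1401 in replicate 2. The second, with a signal of 76.89 at rank 1757, lay 223 bp upstream of the start of W02C12.3b.1 and W02C12.3c.1, which is inside the gene, at 6824 bp. It was at rank 7143 in replicate 1 and rank 1129 in replicate 2. Replicate 2 therefore ranked both among its 1489 highest, and replicate 1 neither. TGTTTAC was present at the first summit, and at 1.31% of all nuclear pooled summits and 4.10% of all optimal ones. Near the 2 starts at the beginning of the gene lay a weak pooled entry at -168 bp, of rank 15522. Its overlapping entry in replicate 1 had rank 16763, and replicate 2 had none. From there to 4265 bp the pooled list had no summit.

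pha-4 had its highest entry at the promoter, 227 bp upstream of the start of F38A6.1a.1 at chrV:20752615-20753034. Its pooled signal was 78.83, at rank 1678. Replicate 1 had it at rank 1348 with a signal of 52.33. Replicate 2 had it at rank 3063 with a signal of 30.35. By rank, only replicate 1 had it among its 1489 highest. The replicates put the summit at offsets of -178 and -295 bp. The internal start of F38A6.1c.1 had an entry of rank 3500 some 480 bp downstream, at ranks 3404 and 19303 of the replicates. As printed above, TGATAAG lies within 50 bp of the pooled promoter summit, but not of the summit in either replicate.

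skn-1 had 19 pooled summits, more than any other of the 9 genes, at 13.2 per 10 kb, and not one in the optimal list. The highest, rank 2033 with a signal of 71.73, lay in an intron shared with the nested gene clec-178, whose start was nearer, at 468 bp. Its overlapping entries had ranks 3868 and 1534 in replicates 1 and 2. Summits lay close to 3 of the 4 starts of skn-1, 95 bp upstream of T19E7.2a.1 at rank 3636, 45 bp inside T19E7.2c.1 at rank 2764 and 43 bp upstream of T19E7.2d.1 at rank 3889. The replicates differed in which start they favoured. At T19E7.2a.1 the overlapping entry nearest to the pooled summit had rank 4017 in replicate 1, at -97 bp, and rank 11632 in replicate 2, at -229 bp. At T19E7.2c.1 the ranks were 3100 and 11452. At T19E7.2d.1 they were 22594 and 1765, the opposite order, so none of the 3 was ranked high by both replicates.

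atfs-1, whose product enters the nucleus when import into mitochondria fails, had 5 pooled summits. The highest, rank 2942 with a signal of 60.69, lay in a coding exon 843 bp after the start of ZC376.7d.1, at ranks 3903 and 4024 of the replicates. A promoter entry 112 bp upstream of ZC376.7b.2 had rank 4265 and a signal of 51.80. It came from replicate 2, at rank 1402 with a signal of 42.45, while replicate 1 had no overlapping entry.

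hsf-1, the heat shock factor gene, had the lowest values of the 9. Its highest pooled entry had rank 7699 with a signal of 41.28 and lay in an intron 7903 bp after the gene start, and 40.6% of all genes had an entry of that rank or better. The replicates had it at ranks 17947 and 16859. The summit nearest to its first start, 545 bp upstream, had rank 17558 and was present in replicate 1 at rank 6135 and not in replicate 2. The 8448 bp between these entries, which hold both starts, had no pooled summit.

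**Figure D2:**
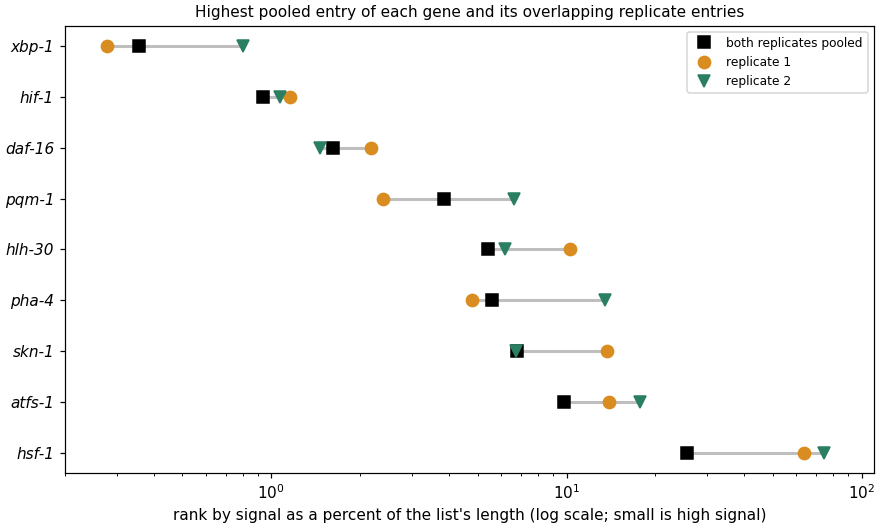
Rank of the highest pooled entry of each gene and of the highest overlapping entry in each replicate, as a percent of the list's length on a log scale, where small means high signal. All marks of xbp-1, hif-1 and daf-16 lie under 3%, those of pqm-1 run from 2.39% to 6.66%, and the replicate marks of hsf-1 lie at 63.7% and 74.3%.

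Set against each other, the genes fell in the order xbp-1, hif-1, daf-16, pqm-1, hlh-30, pha-4, skn-1, atfs-1 and hsf-1 by the rank of their highest pooled entry. Some neighbours in that order were not separated by the replicates. The order of xbp-1, hif-1, daf-16 and pqm-1 was the same in both, with ranks of 78, 328, 611 and 672 in replicate 1 and of 182, 242, 332 and 1511 in replicate 2. Replicate 1 thus placed daf-16 and pqm-1 close together, and replicate 2 placed hif-1 and daf-16 close together. Below these the replicates disagreed when each gene was taken at its own highest entry in that replicate. Replicate 1 had pha-4 at 1348, skn-1 at 2156, hlh-30 at 2889, atfs-1 at 3903 and hsf-1 at 6135. Replicate 2 had hlh-30 at 1129, atfs-1 at 1402, skn-1 at 1534, pha-4 at 2810 and hsf-1 at 5874, so that hlh-30 and atfs-1 stood above pqm-1 there. The median of the highest ranks was 1630 for the 9 genes and 10790 for all nuclear protein-coding genes, of which 4957 had no pooled entry in the window.

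The 1489 highest entries of each replicate gave 5 of the 9 genes in each case. These were xbp-1, hif-1, daf-16, pqm-1 and pha-4 in replicate 1, where 10.5% of all genes held such a summit. In replicate 2, where 10.6% did, they were xbp-1, hif-1, daf-16, hlh-30 and atfs-1. The genes that both replicates gave were xbp-1, hif-1 and daf-16. Of the 92 pooled entries at the 9 genes, 62 overlapped an entry in both replicates, 18 in replicate 1 alone, 10 in replicate 2 alone and 2 in neither. This was 67.4% in both, and 44.0% over all 30000 pooled entries. A replicate entry can overlap several pooled entries, so the 62 are not separate places. The daf-16 entries of pooled ranks 484 and 1754, for example, both overlapped the entries of ranks 611 and 332 in replicates 1 and 2. Windows of the 9 genes were also crowded, with 3.05 to 13.9 pooled summits per 10 kb against a median of 2.85. How far this raises the 67.4% was not tested.

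**Figure D3:**
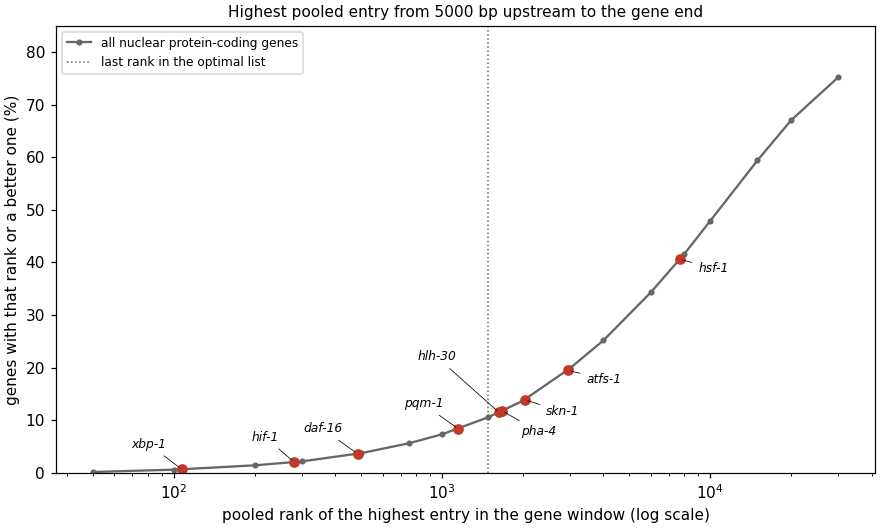
Share of nuclear protein-coding genes, in percent, whose window holds a pooled entry of a given rank or better, with the rank on a log scale; red points are the 9 genes and the dotted line is the last rank of the optimal list, 1489. xbp-1 lies at 0.686%, hif-1 at 2.04%, daf-16 at 3.65% and pqm-1 at 8.38% to the left of the line, hlh-30 and pha-4 lie just to its right, and hsf-1 lies at 40.6%.

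Position set xbp-1 apart from the other genes with an optimal entry. In a promoter window of 1000 bp before and 500 bp after any transcript start, 1 of the 9 genes, xbp-1, held an optimal summit, as did 4.20% of all genes. The other 4 optimal summits lay upstream of this window (hif-1), in introns (daf-16 and pqm-1) or in the 3' UTR (daf-16). For all 5 the nearest protein-coding start was nevertheless one of the gene's own, and 4 of the 9 genes were kept when each summit was given to the nearest start alone, a rule that kept 5.33% of all genes. None of the 5 optimal or 92 pooled summits had a transfer, small nucleolar or small nuclear RNA gene within 100 bp, while 30.6% of all 1464 nuclear optimal summits and 2.44% of the 29975 nuclear pooled ones did. Of the 92 pooled summits, 35 were upstream of the gene, 40 in introns and 10 in coding exons, with the rest in 3' UTRs or differing between transcripts. Within 500 bp of one of the starts lay 23.

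TGATAAG lay within 50 bp of 2 of the 5 optimal summits, those of pqm-1 and daf-16, beside the 8.66% of all optimal summits, and of 6 of the 92 pooled ones (6.52%), beside 2.97% of all nuclear pooled summits. Both depended on where a list put the summit, since TGATAAG was within 50 bp of the pqm-1 summit in replicate 1 and not in replicate 2, and of the daf-16 summit in replicate 2 and not in replicate 1. TGTTTAC lay at 0 of the 5 and 1 of the 92, and TATTTAC, the other form of the binding element, at 0 and 1. Over all optimal summits TATTTAC was present at 1.21%. Over all nuclear pooled summits TGTTTAC was present at 1.31% and TATTTAC at 2.30%.

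Genes that act around these factors were then counted in the same window, from 3 lists drawn up with earlier results of these data known. Of 40 regulators and partners, 12 held an optimal summit, of 46 reporter and classic target genes 16 did (34.8%), and of 43 other stress and longevity factors 13 did (30.2%), beside the 10.6% of all genes. The median windows were 9223, 7203 and 10212 bp. In the promoter window the counts were 4, 11 and 6. Of the 127 different genes, 40 held an optimal summit, and for 26 the nearest protein-coding start to the highest of these was their own. For this last rule no share of all genes is given. With any optimal summit in the window counted, the nearest start was their own for 28, beside 5.33% of all genes.

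Among the regulators the highest signal was at ftt-2, a 14-3-3 gene whose product holds DAF-16 in the cytoplasm, with 189.2 at 565 bp from its start. mdt-15, a Mediator subunit gene, had a signal of 134.2, but its summit was nearer to the start of W04D12.1. The promoter of wdr-23, whose product marks SKN-1 for destruction, had 131.7 at 90 bp from the start. clpp-1, the mitochondrial protease gene upstream of ATFS-1, had 113.7 at 14 bp from an internal start. cysl-1, which acts on HIF-1 through EGL-9, had 112.5 with its summit nearer to ZC506.1, and the kinase gene pdk-1 had 104.1 at 1361 bp. So wdr-23 held an optimal summit at its promoter while skn-1 held none.

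Among the target genes, icl-1 of the glyoxylate cycle had the highest signal, 285.0, at a summit nearer to srh-2. The hypoxia gene cysl-2 had 235.2 at 2580 bp, nearer to dhs-8. The endoplasmic reticulum chaperone gene hsp-3, a target of XBP-1, had 226.7 at 27 bp from its start, beside the 240.7 at 19 bp of xbp-1. Of the other listed XBP-1 targets, ckb-2 had 125.2 in an intron, nearer to ckb-3. The rest, hsp-4, dnj-27, sel-1 and pdi-6, held no optimal summit, with highest pooled ranks of 14091, 17841, 11729 and 7537. The chaperone genes hsp-60 and hsp-110 had 189.1 and 161.7 with summits nearer to the starts of Y22D7AL.10 and rpn-3, and the autophagy receptor gene sqst-1 had 146.9, nearer to mrpl-51. Of the 6 genes with the highest signals in this list, hsp-3 was thus the one whose own start was nearest to its highest summit. Yet icl-1, hsp-60 and hsp-110 also held an optimal summit in the promoter window. For hsp-60 and hsp-110 this included the summit named, 633 and 230 bp upstream of their own starts.

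Among the other factors the forkhead gene fkh-7 had the highest signal, 229.5, in an intron 6618 bp after its start. fos-1, of the AP-1 family, had 209.9 at 3102 bp upstream. The intestinal GATA factor gene elt-2 had 194.0 at 3496 bp upstream, nearer to C39B10.7, and 2 further optimal summits in its window. egl-27, linked to stress resistance, had 193.9 at 410 bp from an internal start, fkh-9 had 172.7 in an intron, and mdl-1, a Mad-like gene, had 168.4 at a summit nearer to R03E9.2. Distant or intronic highest summits, like those of hif-1, daf-16 and pqm-1, were thus also found at these genes. Unlike those members, elt-2, egl-27 and mdl-1 also held an optimal summit in the promoter window, while fkh-7, fos-1 and fkh-9 did not. The highest summit of mdl-1 lay 4541 bp from its own start and 4509 bp from that of R03E9.2.

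**Figure D4:**
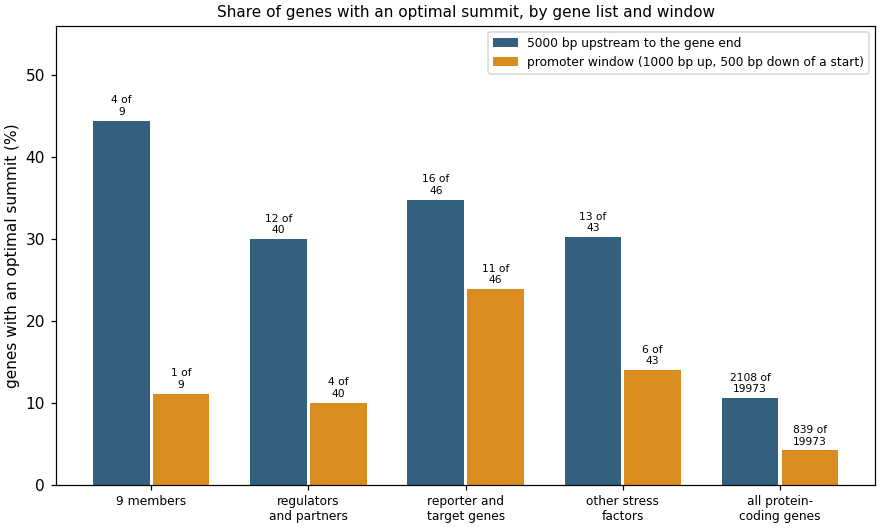
Percent of genes with an optimal summit in 2 windows, for the 9 genes, the 3 lists of related genes and all nuclear protein-coding genes, with counts over the bars. In the wide window the 9 genes stand at 44.4% and all genes at 10.6%; in the promoter window they stand at 11.1% and 4.20%.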

How the data were processed

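Chromatin immunoprecipitation was deposited as peak lists from 2 replicates. Per the file headers (the notes deposited with them), the ce11 replicate and pooled lists were derived from the replicate alignments and 1 further file, taken here to be the control that the labels point to, and the optimal list from those lists. For the aligner and peak caller, names are not given in the sources. No scale is stated for the deposited signal per peak. The deposited −log10 q-value has the same highest value for 1173 pooled entries, so it was not used for ranks, only to count entries at or under a q of 0.05. The ce10 lists were not used, since the reference is ce11.

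With Python 3.11.15, numpy 2.4.6 and matplotlib 3.10.9, summits (start plus offset, 1-based) were given to Ensembl release 115 genes, mitochondrial genes left out. Ranks are by signal, and ties share the better rank. An overlap is 1 shared base; of several overlapping replicate entries the highest was taken. Motifs were searched on both strands. No test was made, so no value has a p. Window rules were tested on simulated data.

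The 9 genes and the lists were chosen with earlier results of these data known. Named genes are the 9, the 6 of each list with the highest optimal signal, genes nearer to such a summit, and the other listed targets of XBP-1. Of the listed symbols hsf-2, daf-21 and dod-8 were not matched and are not analysed here.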

Additional observations from a re-analysis of the deposited data

How the results depend on the processing

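The count of 4 of the 9 genes was 4 with any overlapping base, without entries near small RNA genes and by the nearest start, 3 with 2000 bp upstream (without hif-1), 3 in the higher-signal 744 entries (without pqm-1), 5 with either replicate left out and 1 in the promoter window (xbp-1). The share of all genes was 10.6% in the main window, 11.4% with any overlapping base and 7.89% without entries near small RNA genes. It was 6.92% with 2000 bp upstream, 4.20% in the promoter window and 5.59% in the higher-signal 744 entries. By the nearest start it was 5.33%, and with a replicate left out 10.5% to 10.6%. The 40 related genes became 21 in the promoter window, 19 in the higher-signal entries and 36 to 41 with a replicate left out. With 100 bp to each side, where the count could not fall, 2 of the 5 optimal summits held an element. TGATAAG was then at 14.4% of all optimal summits, against 8.66% with 50 bp. The highest pooled rank was the same in 17 of 18 cases with 2000 bp upstream or any overlap, and that of hif-1 went from 281 to 2674 with 2000 bp. No paired analysis was possible because there is 1 group. The lists give no depth.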
